A study of Mus musculus with 42 samples.

Results

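Medium spiny neurons are the projection neurons of the striatum, and 9 of their genes were followed here through 42 RNA-seq libraries of mouse brain tissue: Ppp1r1b, Rgs9, Pde10a, Drd1, Pdyn, Tac1, Drd2, Adora2a and Penk. The genes were listed by symbol, each symbol matched 1 Ensembl identifier, and they are 9 of the 54232 genes in the count table. The libraries carry a cerebellum label (20) or a hippocampus label (22), and none is labelled as striatum. Under each label there are 4 groups, given by diet and NaKtide, a peptide derived from the Na,K-ATPase alpha 1 subunit that was expressed from a transgene.

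The control groups ate chow with 11% fat and the western groups ate a diet with 42% fat, each for 12 weeks. The NaKtide groups were transgenic mice whose chow or western diet also held 300 mg/kg doxycycline, the drug that switches the transgene on, so NaKtide and doxycycline cannot be told apart if the other groups had none. The labels give neither the promoter that drives the transgene, nor the strain, sex or age, nor whether the mice without NaKtide carried the transgene or ate doxycycline. The cerebellum label has 5 libraries in each of its 4 groups. Under the hippocampus label the groups without NaKtide have 6 (control) and 5 (western) libraries, and those with it have 5 and 6. Libraries are named below by label, group and replicate number. The labels do not tie single libraries to single mice, so p-values measure the spread between these samples.

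The labelled regions were checked against marker genes. Gabra6, a receptor subunit of cerebellar granule cells, had a median of 0.135 CPM (the count scaled to the size of its library) over the cerebellum label and reached 211 CPM in cerebellum western 3, so its defining marker was near 0 in most libraries with that label. Prox1, a dentate granule cell gene, ran from 4.39 to 101 CPM over the hippocampus label and from 6.00 to 31.7 CPM over the cerebellum label, and the ranges overlap. The other striatal projection neuron genes of a list of 20 summed to 1085 to 7916 CPM under the hippocampus label and to 748 to 7517 CPM under the cerebellum label. Xist, which is expressed in females, had more than 5 counts in 4 libraries: 276 in cerebellum western NaKtide 5, 87 in hippocampus control 5, 69 in hippocampus control 6 and 1547 in hippocampus western NaKtide 6. These 4 libraries stand apart from the rest. Under the hippocampus label, calls for NaKtide on the western diet and for the diet without NaKtide are given with and without them. No pair of libraries had closer counts than hippocampus control 5 and 6. The chi-square per degree of freedom between their counts was 2.45 over 15843 genes, above the value of 1 that sampling noise gives. They were kept as 2 samples, though this value cannot tell whether they came from the same mouse. The next closest pairs joined cerebellum western NaKtide 5, which also has Xist counts, to hippocampus control 6 (3.67) and hippocampus control 5 (5.87).

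Medium spiny neurons form parallel pathways out of the striatum. Direct pathway neurons carry the dopamine receptor Drd1 and make dynorphin (from Pdyn) and substance P (from Tac1), while indirect pathway neurons carry the dopamine receptor Drd2 and the adenosine receptor Adora2a and make enkephalin (from Penk). Drd1 raises and Drd2 lowers cyclic AMP, and both cell types share DARPP-32 (Ppp1r1b), a phosphoprotein that becomes an inhibitor of protein phosphatase 1 when protein kinase A phosphorylates it, Rgs9, which shortens G protein signalling, and Pde10a, which breaks down cyclic nucleotides. Some of these genes are also used elsewhere in the brain: Drd2 is an autoreceptor of midbrain dopamine neurons, Pdyn is made in dentate granule cells, and Penk is made by scattered cells of many regions. In bulk tissue, fewer medium spiny neurons and less RNA per neuron cannot be told apart.

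In GRCm38 the shared genes lie at chr11:98348404-98357796 (Ppp1r1b, plus strand, ENSMUSG00000061718), chr11:109225355-109298129 (Rgs9, minus strand, ENSMUSG00000020599) and chr17:8525372-8986648 (Pde10a, plus strand, ENSMUSG00000023868). The direct pathway genes lie at chr13:54051183-54055705 (Drd1, minus strand, ENSMUSG00000021478), chr2:129686565-129699844 (Pdyn, minus strand, ENSMUSG00000027400) and chr6:7554879-7565834 (Tac1, plus strand, ENSMUSG00000061762). The indirect pathway genes lie at chr9:49340627-49408177 (Drd2, plus strand, ENSMUSG00000032259), chr10:75316877-75334784 (Adora2a, plus strand, ENSMUSG00000020178) and chr4:4133531-4138819 (Penk, minus strand, ENSMUSG00000045573). The members therefore sit on 8 chromosomes, and their levels moved together without being neighbours. RefSeq promoters (GRCm38.p6) were matched for 6 of the 9 members, with 9 start sites, and not for Ppp1r1b, Adora2a and Penk. As examples, windows of the 250 bases before the outermost listed start are printed for 1 gene of each kind. The windows are those of Drd2 of the indirect pathway (chr9:49340153-49340402, plus strand), Rgs9 of both pathways (chr11:109298182-109298431, minus strand) and Pdyn of the direct pathway (chr2:129699939-129700188, minus strand). They read 5′ to 3′ along the gene, and capitals mark GGGCGG (or CCGCCC on the other strand) and TGACG (or CGTCA), the core letters of GC boxes and of cyclic AMP response elements.
Drd2: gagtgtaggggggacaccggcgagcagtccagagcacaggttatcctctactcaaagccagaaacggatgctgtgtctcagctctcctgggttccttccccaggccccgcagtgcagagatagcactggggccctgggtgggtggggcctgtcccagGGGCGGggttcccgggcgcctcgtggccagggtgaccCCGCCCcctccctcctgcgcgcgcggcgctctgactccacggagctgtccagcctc
Rgs9: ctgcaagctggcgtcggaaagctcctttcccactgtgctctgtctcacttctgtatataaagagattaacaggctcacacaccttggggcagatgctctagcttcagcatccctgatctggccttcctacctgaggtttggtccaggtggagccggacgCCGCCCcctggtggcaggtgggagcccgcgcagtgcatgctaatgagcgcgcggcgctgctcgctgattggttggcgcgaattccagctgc
Pdyn: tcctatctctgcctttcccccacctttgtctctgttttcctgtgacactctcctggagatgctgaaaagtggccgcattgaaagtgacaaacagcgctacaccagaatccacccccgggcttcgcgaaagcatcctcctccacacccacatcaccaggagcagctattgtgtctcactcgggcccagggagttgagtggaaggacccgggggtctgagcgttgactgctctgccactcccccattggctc
The Drd2 window holds 2 GGGCGG matches, the Rgs9 window 1 and the Pdyn window 0, and TGACG was in none of these 3 windows. Tac1 held 2 TGACG matches and 1 GGGCGG match in its window. At the outermost start of the other matched members, Pde10a held 1 GGGCGG match and Drd1 0, and TGACG was in neither window. Over 32851 RefSeq promoter windows of the same length, 32.7% held GGGCGG and 17.8% held TGACG, and no match overlapped a match of the other motif in the member windows.

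All 9 genes were detected in every library, and they rose and fell together across libraries far more than they differed between the labelled regions. Compared per length, on the deposited FPKM values, Penk had the highest median level over the 42 libraries (106.9 FPKM), followed by Ppp1r1b (76.2 FPKM), Pdyn (11.5 FPKM), Drd2 (8.04 FPKM), Tac1 (7.62 FPKM), Adora2a (4.74 FPKM), Rgs9 (3.73 FPKM), Drd1 (2.62 FPKM) and Pde10a (2.61 FPKM). In hippocampus western NaKtide 6, among the libraries richest in these genes, Penk stood at 873 FPKM, Ppp1r1b at 610 FPKM, Adora2a at 106.0 FPKM, Drd2 at 76.2 FPKM and Drd1 at 29.1 FPKM. Adora2a thus ranked lower by its median than in that library, where it passed Pdyn, Drd2 and Tac1.

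The span from the poorest to the richest library differed widely between members. Adora2a ran from 1.22 to 326 CPM, a ratio of 267 (95% exact interval of the counts 129.6 to 665). Rgs9 ran from 1.57 to 351 CPM (ratio 224), Drd2 from 1.57 to 195 CPM (ratio 124) and Pdyn from 1.74 to 192 CPM (ratio 109.9). Drd1 ran from 0.523 to 113 CPM, and since its lowest library held 3 counts, its ratio of 215 has a wide interval (73.5 to 1047). The spans were narrower for Penk (25.6 to 1496 CPM, ratio 58.5), Pde10a (9.87 to 361 CPM, ratio 36.6), Tac1 (5.06 to 162 CPM, ratio 31.99) and Ppp1r1b (59.9 to 1797 CPM, ratio 30.0). Counting intervals cover counting error only.

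The same libraries were at the top for every member. Cerebellum control NaKtide 2 and hippocampus western NaKtide 6 held places 1 to 3 of 42 for all 9 genes, and cerebellum western NaKtide 1 held places 1 to 4. In 11 libraries all 9 members were among the highest 15. Across the 42 libraries the correlations of log2(CPM + 1) between 2 members ran from 0.65 to 0.96 over 36 pairs, with a median of 0.84. These points share the library, its depth and its dissection, so the correlations are a description. The 9 values of cerebellum control NaKtide 2 and hippocampus western NaKtide 6, libraries of different label, diet and number, differed by at most 0.28 on the log2 scale. Hippocampus control 5 and 6 differed by at most 0.20, and cerebellum western NaKtide 5 and hippocampus control 6, again of different labels, by at most 0.35.

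**Figure D1:**
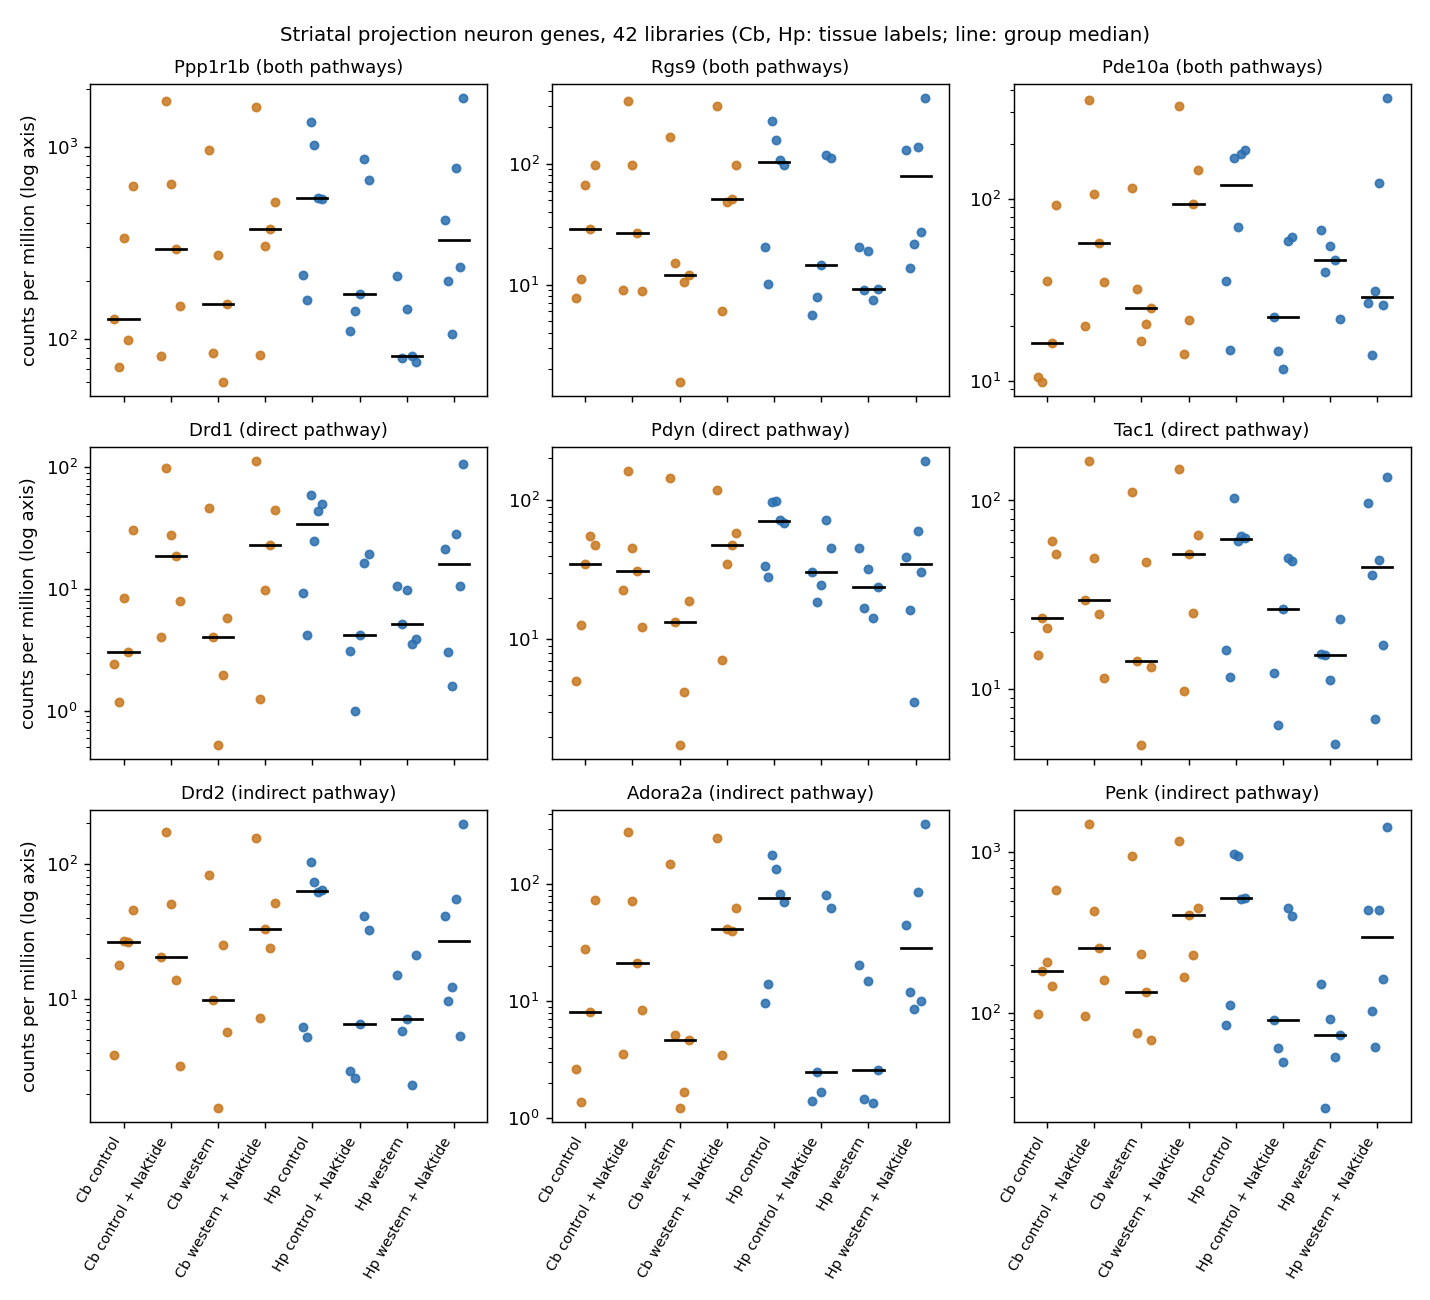
Level of each of the 9 members (CPM, log axis) in the 42 libraries by group, with 1 point for each library and a line at the group median (Cb, cerebellum label, orange; Hp, hippocampus label, blue). The hippocampus western libraries all lie low for Ppp1r1b (76.0 to 212 CPM), and the hippocampus control group has the highest median in all 9 panels, for example 539 CPM for Ppp1r1b.

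By group medians, hippocampus control stood highest for all 9 genes and cerebellum western NaKtide stood second for 8 of them. For Ppp1r1b the order of the medians was hippocampus control (539 CPM), cerebellum western NaKtide (371 CPM), hippocampus western NaKtide (328 CPM), cerebellum control NaKtide (294 CPM), hippocampus control NaKtide (171 CPM), cerebellum western (151 CPM), cerebellum control (127 CPM) and hippocampus western (81.2 CPM). For Drd1 the order was hippocampus control (34.4 CPM), cerebellum western NaKtide (22.8 CPM), cerebellum control NaKtide (18.7 CPM), hippocampus western NaKtide (16.0 CPM), hippocampus western (5.11 CPM), hippocampus control NaKtide (4.22 CPM), cerebellum western (4.03 CPM) and cerebellum control (3.06 CPM). For Drd2 it was hippocampus control (62.9 CPM), cerebellum western NaKtide (32.9 CPM), hippocampus western NaKtide (26.7 CPM), cerebellum control (26.2 CPM), cerebellum control NaKtide (20.3 CPM), cerebellum western (9.94 CPM), hippocampus western (7.19 CPM) and hippocampus control NaKtide (6.54 CPM). For each of the 9 genes the ranges of any 2 neighbouring groups in its order overlapped, so no step in these orders exceeded the spread between libraries.

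The remaining members had the same upper end and different lower ends. The medians of Rgs9 ran from 103 CPM in hippocampus control to 9.18 CPM in hippocampus western, those of Penk from 517 to 72.5 CPM in the same groups, and those of Adora2a from 76.7 CPM in hippocampus control to 2.48 CPM in hippocampus control NaKtide. The medians of Pdyn ran from 70.9 to 13.3 CPM and those of Tac1 from 62.2 to 14.1 CPM, with cerebellum western lowest for both. Pde10a ran from 119 CPM in hippocampus control to 16.2 CPM in cerebellum control, and it was the member for which hippocampus western (46.0 CPM) had a higher median than hippocampus western NaKtide (28.8 CPM).

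Within the hippocampus label, the western libraries were low for the shared genes Ppp1r1b and Rgs9. Ppp1r1b read 212, 79.3, 144, 81.2 and 76.0 CPM in western 1 to 5, and 109.7, 139, 171, 868 and 672 CPM in control NaKtide 1 to 5. Over the 6 control libraries its lowest, median and highest values were 159, 539 and 1345 CPM, and over the 6 western NaKtide libraries 106, 328 and 1797 CPM. The western libraries were all low, control NaKtide 4 and 5 stood apart from the other 3 of their group, and all 4 ranges overlapped. Rgs9 read 20.6, 9.06, 19.1, 7.44 and 9.18 CPM in western 1 to 5, against 10.04, 103 and 225 CPM (lowest, median and highest) in control and 13.8, 78.6 and 351 CPM in western NaKtide. In 5 of the 6 western NaKtide libraries Rgs9 was above the highest western library. Pde10a read 67.6, 39.7, 55.2, 46.0 and 21.8 CPM in western 1 to 5, against 14.7, 119 and 185 CPM in control and 13.9, 28.8 and 361 CPM in western NaKtide, so for this gene the western libraries lay inside the ranges of both groups.

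The direct pathway genes had lower medians in hippocampus western than in hippocampus control and hippocampus western NaKtide, with overlapping ranges. Drd1 read 10.5, 5.11, 9.90, 3.54 and 3.87 CPM in hippocampus western 1 to 5 and 3.12, 0.990, 4.22, 16.3 and 19.5 CPM in control NaKtide 1 to 5. Its lowest, median and highest values were 4.20, 34.4 and 59.7 CPM in control and 1.60, 16.0 and 106 CPM in western NaKtide. The western NaKtide group held the highest Drd1 library of the label and 2 libraries below every western library. Tac1 read 15.3, 15.2, 11.2, 5.13 and 23.5 CPM in western 1 to 5 and ran from 6.94 to 133 CPM in western NaKtide, with 4 of 6 libraries above all western ones. Pdyn read 45.3, 16.8, 32.3, 14.3 and 23.7 CPM in western 1 to 5 and ran from 3.56 to 192 CPM in western NaKtide, with 2 of 6 above all western ones.

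Among indirect pathway genes, Adora2a read 20.6, 1.46, 14.97, 1.34 and 2.58 CPM in hippocampus western 1 to 5 and 1.40, 2.48, 1.69, 80.4 and 62.3 CPM in control NaKtide 1 to 5. It ran from 9.71 to 177 CPM in control and from 8.54 to 326 CPM in western NaKtide, with medians of 76.7 and 28.5 CPM. The lowest Adora2a values of the label were thus in 3 western and 3 control NaKtide libraries, below every library of the other 2 groups. Penk read 151, 25.6, 91.3, 53.0 and 72.5 CPM in western 1 to 5 and 90.5, 60.2, 49.4, 449.6 and 399.6 CPM in control NaKtide 1 to 5. Its lowest, median and highest values were 84.7, 517 and 977 CPM in control and 61.4, 299 and 1435 CPM in western NaKtide. Drd2 read 15.1, 5.84, 7.19, 2.32 and 21.1 CPM in western 1 to 5 and 2.96, 2.64, 6.54, 40.8 and 32.2 CPM in control NaKtide 1 to 5, and ran from 5.25 to 103 CPM in control and from 5.37 to 195 CPM in western NaKtide. All these ranges overlapped.

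Under the cerebellum label each group held 1 library far above the others or a stepwise spread. Ppp1r1b read 127, 71.6, 335, 98.2 and 624 CPM in control, 81.2, 1733, 643, 294 and 149 CPM in control NaKtide, 966, 84.8, 272, 59.9 and 151 CPM in western and 1618, 82.3, 304, 371 and 517 CPM in western NaKtide libraries 1 to 5. Drd1 read 2.43, 1.18, 8.42, 3.06 and 30.8 CPM in control, 4.04, 99.0, 27.9, 18.7 and 7.96 CPM in control NaKtide, 46.8, 4.03, 0.523, 1.97 and 5.82 CPM in western and 113, 1.24, 9.84, 22.8 and 44.4 CPM in western NaKtide. Control NaKtide 2, western 1 and western NaKtide 1 were high for both genes, and the ranges of the 4 groups overlapped.

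Direct and indirect pathway genes were set against each other as the mean log2(CPM + 1) of Drd1, Pdyn and Tac1 minus that of Drd2, Adora2a and Penk. The scores followed each other: libraries with high indirect genes also had high direct genes. The difference ran from -2.13 to 0.66 with a median of -1.06, and the indirect mean was the higher in 38 of the 42 libraries. Penk was the most abundant of these 6 genes, so the sign depends on the levels of the genes chosen and only differences between libraries are read here. In the 5 libraries with the highest mean of the 9 members the difference was -1.59 in cerebellum control NaKtide 2, -1.69 in hippocampus western NaKtide 6, -1.51 in cerebellum western NaKtide 1, -1.62 in hippocampus control 3 and -1.31 in cerebellum western 1. The next 3 by that mean, hippocampus control 4, 5 and 6, had -1.98, -1.21 and -1.14. It was above 0 in hippocampus control NaKtide 1 (0.32) and 3 (0.62) and in hippocampus western 2 (0.66) and 4 (0.01). With a pseudocount of 5 in place of 1 it was -0.23 in hippocampus western 4.

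By group, the difference was least negative in the hippocampus western libraries, with -0.86, 0.66, -0.48, 0.01 and -0.33 in libraries 1 to 5, and in hippocampus control NaKtide, with 0.32, -0.47, 0.62, -1.53 and -1.39. Its lowest, median and highest values were -1.98, -1.17 and -0.04 in hippocampus control and -2.13, -1.31 and -0.27 in hippocampus western NaKtide. The 4 cerebellum groups had medians of -1.16 (control), -0.78 (control NaKtide), -1.23 (western) and -1.51 (western NaKtide). The ranges of hippocampus western (-0.86 to 0.66) and cerebellum western NaKtide (-1.66 to -0.98) did not overlap, those of every other pair of groups did, and no pair was tested. Within hippocampus control NaKtide the libraries with high members (4 and 5) had differences between those of the 5 libraries named first above. Using the receptors alone, Drd1 against the mean of Drd2 and Adora2a, moved the value in 14 of the 42 libraries by more than the spread within their group, so the neuropeptides weigh on this measure.

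**Figure D2:**
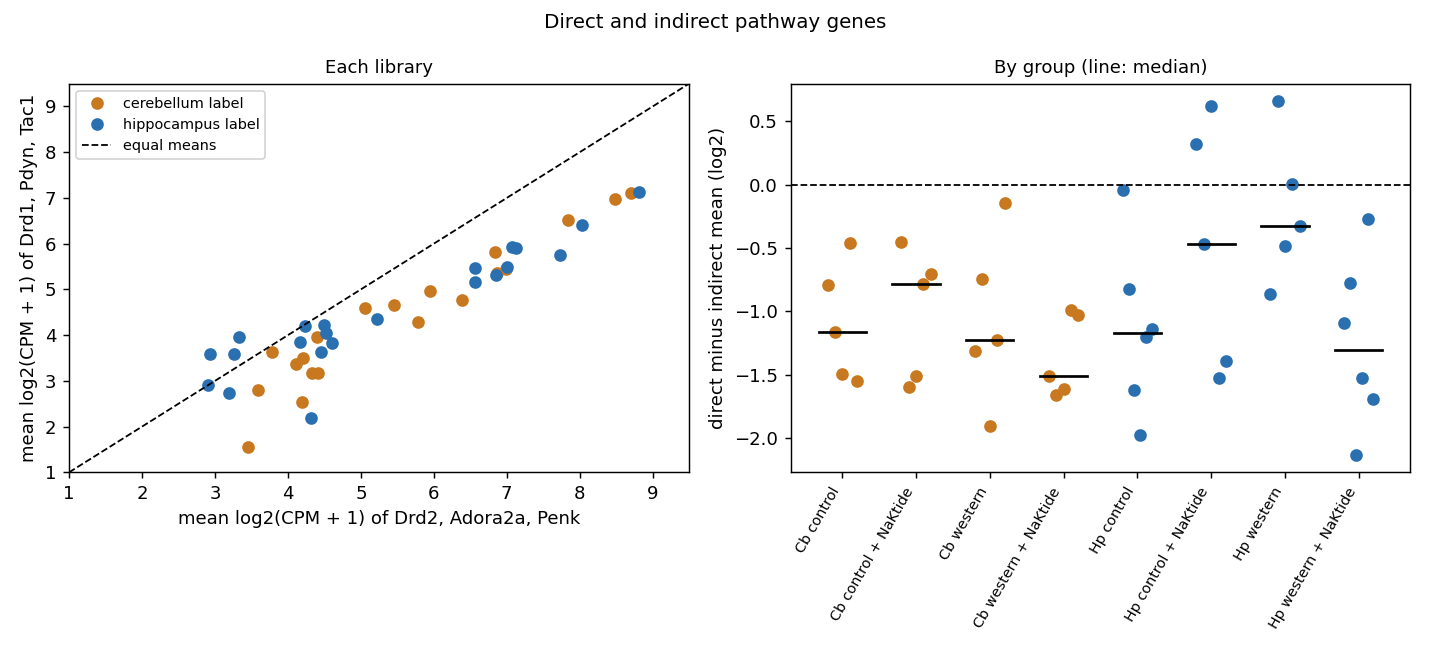
Left, mean log2(CPM + 1) of the direct pathway genes against that of the indirect pathway genes in 42 libraries, with a dashed line at equal means. Right, the direct minus indirect difference by group, with 1 point for each library and a line at the group median; the values run from -2.13 to 0.66, and 4 hippocampus label libraries lie above 0.

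Single libraries broke the joint pattern. Cerebellum western 3 had the lowest Drd1 (0.523 CPM), Adora2a (1.22 CPM), Rgs9 (1.57 CPM), Drd2 (1.57 CPM), Pdyn (1.74 CPM) and Tac1 (5.06 CPM) of all 42 libraries. The same library had 272 CPM of Ppp1r1b and 232 CPM of Penk, each above its median over the 42 libraries (226 and 175 CPM). It was the library with 211 CPM of Gabra6, and it also had 632 CPM of Pcp2 and 763 CPM of Car8, genes of cerebellar Purkinje cells. Cerebellum control NaKtide 5, with the next highest Gabra6 (121 CPM), had 128 CPM of Pcp2 and 346 CPM of Car8. Its Ppp1r1b (149 CPM) and Penk (160 CPM) were each below the median over the 42 libraries. The part of cerebellar cells in the Ppp1r1b and Penk of cerebellum western 3 was not tested.

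Drd2 was far above Drd1 in several libraries, and most of those named here had markers of midbrain dopamine neurons, Th (tyrosine hydroxylase, the first enzyme of dopamine synthesis) and Slc6a3 (the dopamine transporter). In cerebellum control 4 Drd2 stood at 26.2 CPM with Drd1 at 3.06 CPM, beside 183 CPM of Th and 156 CPM of Slc6a3. In cerebellum control 2 Drd2 was 17.8 CPM and Drd1 1.18 CPM, beside 93.7 CPM of Th, and in hippocampus western 5 Drd2 was 21.1 CPM and Drd1 3.87 CPM, beside 77.8 CPM of Th. Together with cerebellum control NaKtide 1, where Drd2 was 20.3 CPM, Drd1 4.04 CPM and Th 79.0 CPM, these were the 4 libraries with the most Th. Cerebellum western 4, with 25.0 CPM of Drd2 and 1.97 CPM of Drd1, had 18.0 CPM of Th. Hippocampus western NaKtide 3, with 12.3 CPM of Drd2 and 1.60 CPM of Drd1, had 2.85 CPM of Th and 1.07 CPM of Slc6a3, so not every such library carried these markers. In the 3 richest libraries, by contrast, Drd2 read 172, 195 and 155 CPM against 99.0, 106 and 113 CPM of Drd1. The summed level of a list of 7 midbrain dopamine neuron genes ran from 14.3 to 460.5 CPM across the 42 libraries, and its part in Drd2 was not tested.

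**Figure D3:**
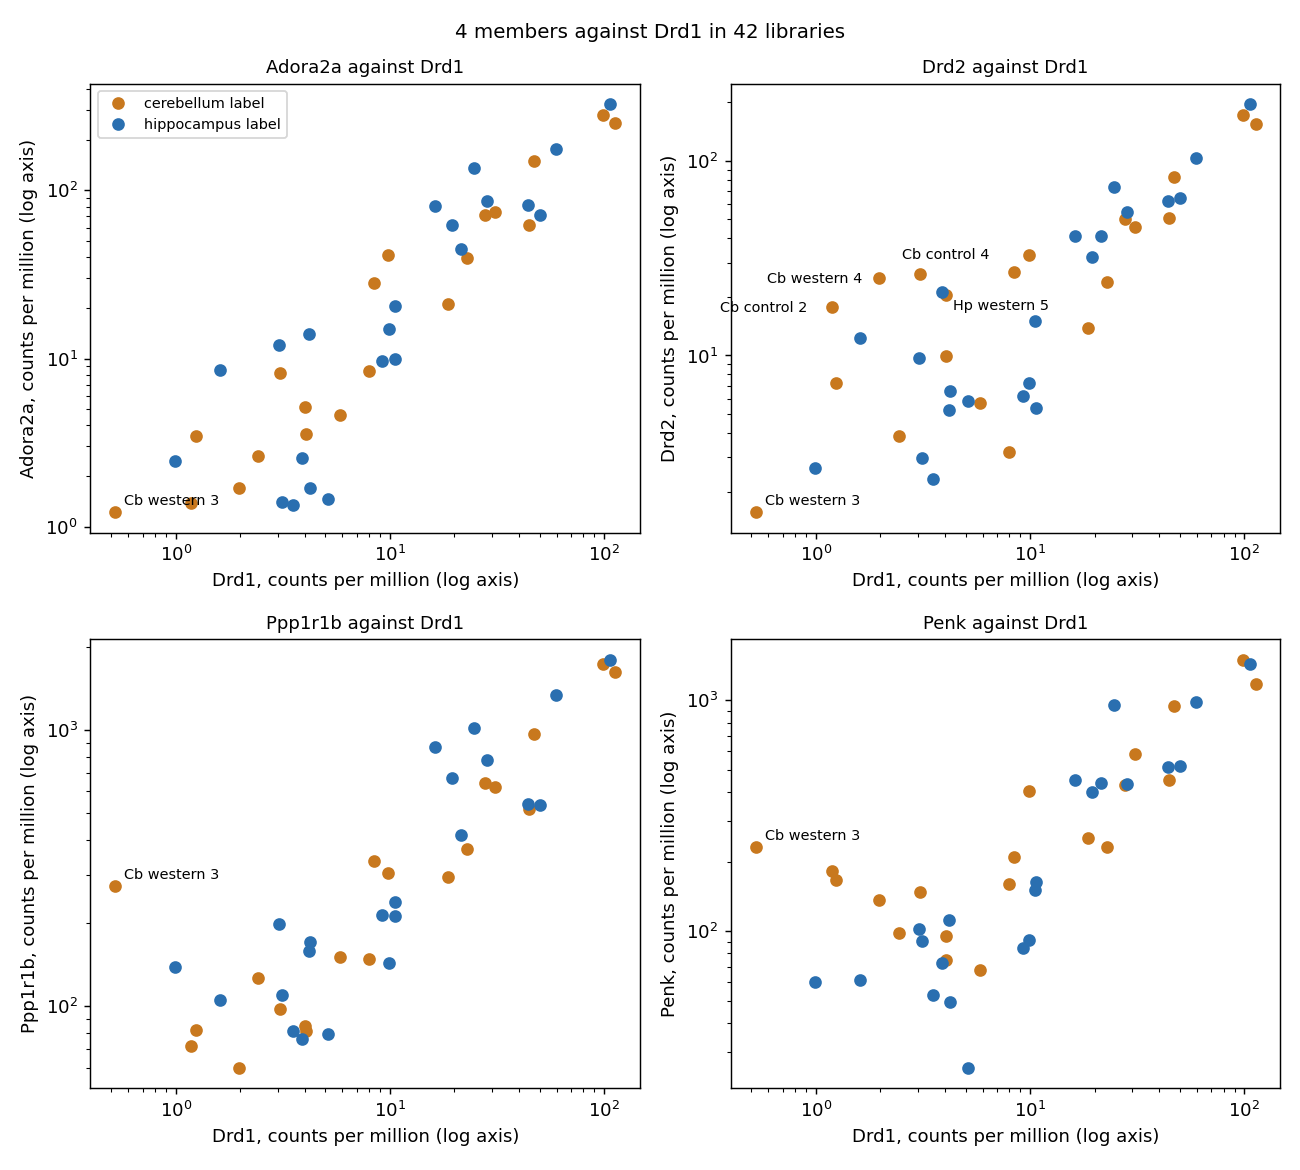
Adora2a, Drd2, Ppp1r1b and Penk against Drd1 in 42 libraries (CPM, log axes; cerebellum label orange, hippocampus label blue). Cerebellum western 3 keeps 272 CPM of Ppp1r1b and 232 CPM of Penk at 0.523 CPM of Drd1, and the 4 other libraries named in the Drd2 panel carry 17.8 to 26.2 CPM of Drd2 at 1.18 to 3.87 CPM of Drd1.

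In the hippocampus label, NaKtide on the western diet was the comparison in which members passed the test. Ppp1r1b, Rgs9, Penk, Tac1 and Adora2a rose, so 5 of the 9 were called higher and 0 lower by edgeR's quasi-likelihood test at an adjusted p of 0.05. Among all 16442 genes tested, 33.7% were called in either direction and 17.4% higher, with a median log2 fold change of 0.05. Ppp1r1b rose by 2.31 on the log2 scale (SE 0.72, adjusted p = 0.0186, edgeR), Rgs9 by 3.11 (SE 0.95, adjusted p = 0.0171) and Penk by 2.48 (SE 0.82, adjusted p = 0.0251). Tac1 rose by 2.03 (SE 0.68, adjusted p = 0.0256, edgeR) and Adora2a by 3.31 (SE 1.198, adjusted p = 0.0376). The 4 others had positive differences that missed the threshold: Drd2 2.39 (adjusted p = 0.0563), Drd1 2.11 (adjusted p = 0.0627), Pdyn 1.11 (adjusted p = 0.168) and Pde10a 1.06 (adjusted p = 0.272), all by edgeR. The called genes belong to both pathways and to the shared group, with Tac1 from the direct and Adora2a and Penk from the indirect pathway, and the difference between pathways was not tested.

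The number of members called changed with the libraries in the fit. Without the libraries with Xist counts, which takes hippocampus western NaKtide 6 and hippocampus control 5 and 6 out of the fit, 0 of 9 were called by edgeR while 33.8% of genes were, with Ppp1r1b at 1.53 (adjusted p = 0.0879), Rgs9 at 2.31 (adjusted p = 0.0643) and Pde10a at -0.08. Leaving out single libraries gave 1 to 7 calls: only Rgs9 was called without western 2 or western 4 (22.9% of genes called in each fit) or without western NaKtide 6 (34.8%), and 3 members were called without western 3 (24.4%). DESeq2 called 7 of 9 higher, adding Drd1 and Drd2, against 36.8% of genes. Other values moved with the same contrast. The summed level of 5 blood cell genes ran from 239.6 to 1243 CPM in western and from 736 to 3454 CPM in western NaKtide. That of 7 dentate granule cell genes ran from 115 to 515 CPM and from 69.1 to 235 CPM. The dentate list includes the member Pdyn, which read up to 192 CPM in western NaKtide, so that sum is not separate from the members. Neurod6, from a list of 6 hippocampal pyramidal neuron genes, ran from 51.1 to 171 CPM in western and from 0.356 to 30.2 CPM in western NaKtide, without overlap. The sum of that list ran from 241 to 556 CPM and from 158 to 348 CPM, with overlap. The part of these values in the members' difference was not tested.

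The western diet without NaKtide went the other way in the hippocampus label. All 9 members had negative differences, from -1.24 (Pde10a) to -3.33 (Adora2a), and every western library lay at or below the control median for all 9 genes. None passed edgeR's test (0 of 9, adjusted p from 0.0956 to 0.308, 8 of 9 at an unadjusted p under 0.05), in a comparison that called 0% of 16442 genes while 4046 had an unadjusted p under 0.05. DESeq2 called 4 members lower (Ppp1r1b, Adora2a, Rgs9 and Penk), against 5.71% of genes called and 2.08% called lower. Without the libraries with Xist counts edgeR called 2 lower, Ppp1r1b at -2.52 (adjusted p = 0.0312) and Penk at -2.75 (adjusted p = 0.0380), against 5.55% of genes called lower. This comparison and the one of NaKtide on the western diet share the 5 western libraries, so their values side by side, such as -2.44 and 2.31 for Ppp1r1b, are not separate evidence.

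**Figure D4:**
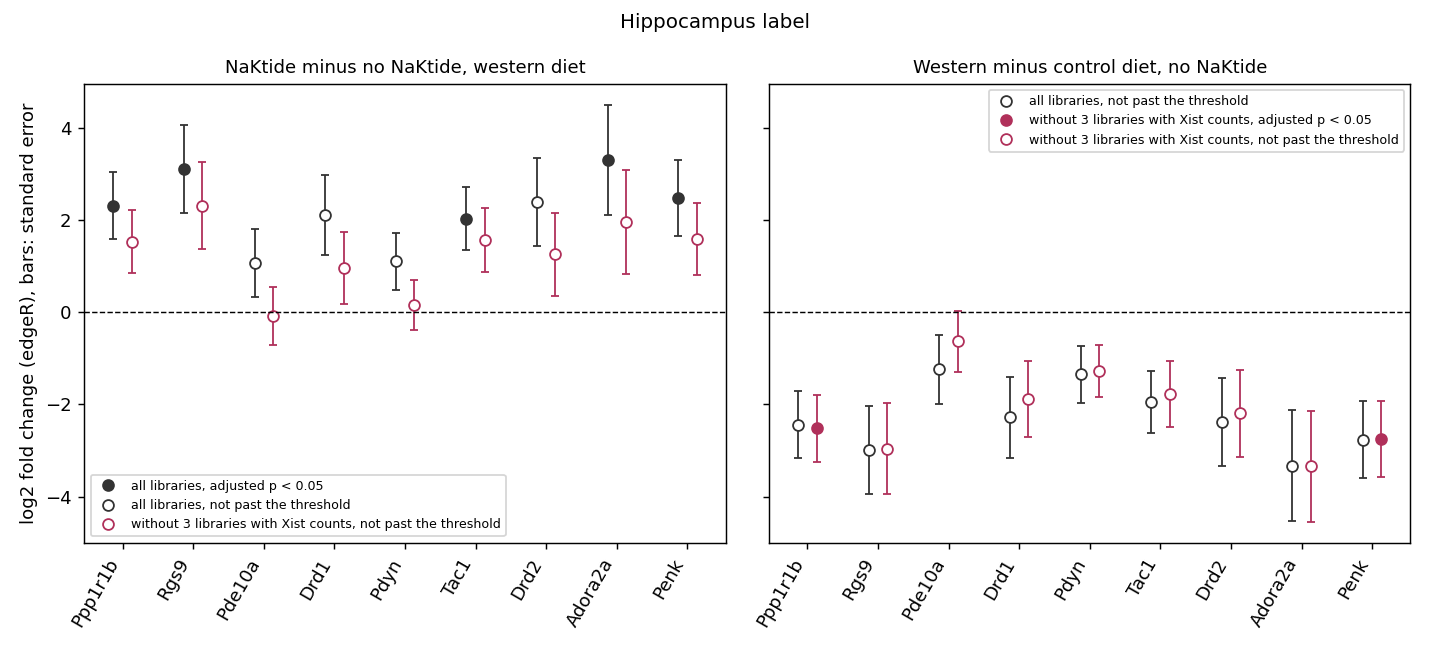
Log2 fold change of each member in 2 comparisons of the hippocampus label, with bars for the standard error, from edgeR with all libraries (black) and without the 3 hippocampus libraries with Xist counts (red); filled points passed an adjusted p of 0.05. With all libraries 5 of 9 are called for NaKtide on the western diet and 0 of 9 for the diet; without the 3 libraries the counts are 0 and 2.

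The other hippocampus comparisons called no member by either tool. NaKtide on the control diet gave 9 negative differences, from -0.69 (Ppp1r1b) to -1.87 (Drd1), with adjusted p from 0.280 to 0.621 and 2 of 9 at an unadjusted p under 0.05 (edgeR), against 0% of genes called and 2720 at an unadjusted p under 0.05 (0.0289% called by DESeq2). Diet with NaKtide gave 9 positive differences, from 0.55 (Pdyn) to 1.69 (Drd1), with 0 of 9 at an unadjusted p under 0.05, against 0% called and 1756 genes at that p (0.201% by DESeq2). The interaction of diet and NaKtide, which asks whether the NaKtide difference changed with the diet, was positive for all 9, from 1.90 (Pdyn) to 4.77 (Adora2a), with 9 of 9 at an unadjusted p under 0.05 and adjusted p from 0.167 to 0.321 (edgeR). In that comparison 0% of genes were called by edgeR, with 2399 at an unadjusted p under 0.05, and 1.1% by DESeq2.

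Under the cerebellum label no member was called in any of the 5 comparisons by edgeR or DESeq2 (which gave 7 of 9 no adjusted p in the interaction), and 0 had an unadjusted p under 0.05. NaKtide on the control diet gave 9 positive differences, from 0.67 (Tac1) to 1.78 (Pde10a), and NaKtide on the western diet 9 from 0.54 (Pdyn) to 1.69 (Drd1). The background was 0.00612% of 16338 genes called (edgeR) for NaKtide on the control diet, with 4816 at an unadjusted p under 0.05, and 0% for NaKtide on the western diet, with 679. On the control diet 5 of the 9 positive differences turned negative without control NaKtide 2, to between -0.06 and -0.27 for Drd2, Rgs9, Penk, Pdyn and Tac1. The other 4 were positive with any single library left out, at no less than 0.72 for Pde10a, 0.64 for Drd1, 0.21 for Ppp1r1b and 0.17 for Adora2a. On the western diet all 9 were positive with any single library left out. Their lowest values there ran from 0.003 (Tac1), 0.03 (Pdyn) and 0.07 (Ppp1r1b) up to 0.74 (Drd1). Without control 5, Pde10a was called higher with NaKtide on the control diet, by 2.66 (adjusted p = 0.0480, edgeR), in a fit that called 26.5% of 16530 genes. The diet comparisons called 0.00612% of genes without NaKtide (3192 at an unadjusted p under 0.05) and 0% with it (396), and the interaction 0.00612% (2844). DESeq2 called 8.34% and 0.00613% of genes for NaKtide on the control and western diets, 1.04% and 0.00613% for diet without and with NaKtide, and 0.288% for the interaction.

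The tissue labels did not separate the members either. In each of the 4 comparisons of the hippocampus label with the cerebellum label within a diet and NaKtide group, 0 of 9 members were called by edgeR or DESeq2. Unadjusted p fell under 0.05 for 1 member, in the western groups, and for 0 in the other 3 comparisons. Of 17088 genes, edgeR called 2.20% on the control diet, 0% on the control diet with NaKtide, 0% on the western diet and 1.75% on the western diet with NaKtide, with 4956, 3617, 3866 and 2817 genes at an unadjusted p under 0.05. DESeq2 called 9.86%, 0.0176%, 1.19% and 3.94% of genes in the same order. Without cerebellum control 5, Pde10a alone was called higher in the hippocampus label on the control diet, by 2.59 (adjusted p = 0.0427, edgeR), in a fit that called 25.0% of 17329 genes.

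Other genes of the same cells and pathway were read from lists, here for NaKtide on the western diet in the hippocampus label, the comparison with calls. Of 20 other striatal projection neuron genes, 6 rose and 0 fell, with a median log2 fold change of 1.08 beside 0.05 for all genes. Over all genes 17.4% were called higher and 16.3% lower, which is the background for the counts of each list given here for this comparison. Among them were Rxrg, a retinoid X receptor (3.03, adjusted p = 0.00611, edgeR), Ptpn5, the striatum-enriched phosphatase STEP (0.87, adjusted p = 0.0163), and Actn2, an actin crosslinker (1.59, adjusted p = 0.0303). Of 6 other direct pathway genes tested, Isl1, a homeodomain factor, rose by 3.08 and Eya1 fell by 0.92. Of 6 other indirect pathway genes tested, Sp9, a zinc finger factor, rose by 1.40 and Upb1 by 1.96. Of 8 striatal interneuron genes 3 rose, Slc18a3 (3.73) and Chat (3.00), which mark cholinergic neurons, and Sst (0.89), which encodes somatostatin, and 0 fell.

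Of 20 genes of DARPP-32 and dopamine to cyclic AMP signalling, 2 rose and 8 fell in the same comparison, with a median of -0.41, beside the 33.7% of all genes called in either direction. In some other comparisons the list had the sign of the members, and in others it did not. With NaKtide on the control diet 17 of 20 differences were positive under the cerebellum label and 17 of 20 negative under the hippocampus label, like the members. For the diet without NaKtide under the hippocampus label 13 of 20 were positive, while all 9 members were negative. In each of these comparisons edgeR called 0 genes of the list. For NaKtide on the western diet under the hippocampus label, the 3 genes of the list with the smallest p all fell. Ppp1cb, a catalytic subunit of protein phosphatase 1, fell by 0.95 (adjusted p = 0.00295, edgeR). Prkar1a, a regulatory subunit of protein kinase A, fell by 0.58 (adjusted p = 0.00621, edgeR). Gnai1, an inhibitory G protein subunit, fell by 0.82 (adjusted p = 0.00758, edgeR). The summed level of this list ran from 4579 to 5948 CPM in western and from 3125 to 5097 CPM in western NaKtide. Of 7 opioid and tachykinin receptor and processing genes tested, Pcsk1, a prohormone convertase, fell by 1.29 and 0 rose. Among the marker lists of other regions, 4 of 7 dentate granule, 2 of 6 hippocampal pyramidal and 3 of 6 Purkinje genes fell. The dentate list includes the member Pdyn, which was not called. Of the others, 2 of 4 cerebellar granule and 1 of 5 midbrain dopamine genes fell, and 1 of 7 hypothalamic and 4 of 5 blood cell genes rose. Of 7 neocortex, 7 thalamus, 5 choroid plexus and 1 pituitary genes tested, 0 passed.

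The genes most like the members over the 42 libraries were found by Pearson's r with the mean log2(CPM + 1) of the 9, among 13939 other genes. Among the closest were Gpr6 (r = 0.98), Sh3rf2 (0.97), Serpina9 (0.97), Cd4 (0.97), Rasd2 (0.96), Adcy5 (0.96) and Ido1 (0.96), followed by Rxrg (0.93), Pde1b (0.93), Slc35d3 (0.92) and Inf2 (0.90). Gpr6 is an orphan receptor of indirect pathway neurons and ran from 0.174 to 67.3 CPM. Adcy5, the main adenylyl cyclase of the striatum, ran from 43.1 to 797 CPM. For single members the closest gene was Slc35d3 for Drd2 (r = 0.95), Sh3rf2 for Adora2a (0.97) and Ppp1r1b (0.95), Gpr6 for Rgs9 (0.97) and Serpina9 for Penk (0.92). Pdyn was closest to Gpr83 (r = 0.91), Tac1 to Drd2 (0.93) and Pde10a to Drd1 (0.92). Over the 42 libraries Tac1, a direct pathway gene, was thus nearest to an indirect pathway receptor, and Pdyn had the lowest of these 8 values. Within the labels, Tac1 was closest to Drd2 under the cerebellum label (r = 0.95) and to Htr1d under the hippocampus label (r = 0.91).

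The difference of Pde10a from Ppp1r1b moved with transcript length. Its exons cover 12849 bases, against 1634 (Penk) to 6390 (Rgs9) for the other members and 2928 for Ppp1r1b. For each library, the slope of log2(CPM + 1), as the deviation from each gene's mean, on log2 exon length was taken over 10590 genes, so that a positive slope means that long genes read high. Over the 42 libraries this slope and the difference of Pde10a from Ppp1r1b had a Pearson's r of 0.79, as a description over libraries that share processing. The slope was 0.05 to 0.30 in hippocampus western and -0.18 to 0.06 in hippocampus western NaKtide, and the difference of Pde10a from Ppp1r1b was -1.76 to -0.81 and -3.92 to -1.74 on the log2 scale. The slopes of these groups overlapped between 0.05 and 0.06, and the part of this length trend in the members' differences was not tested.

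**Figure D5:**
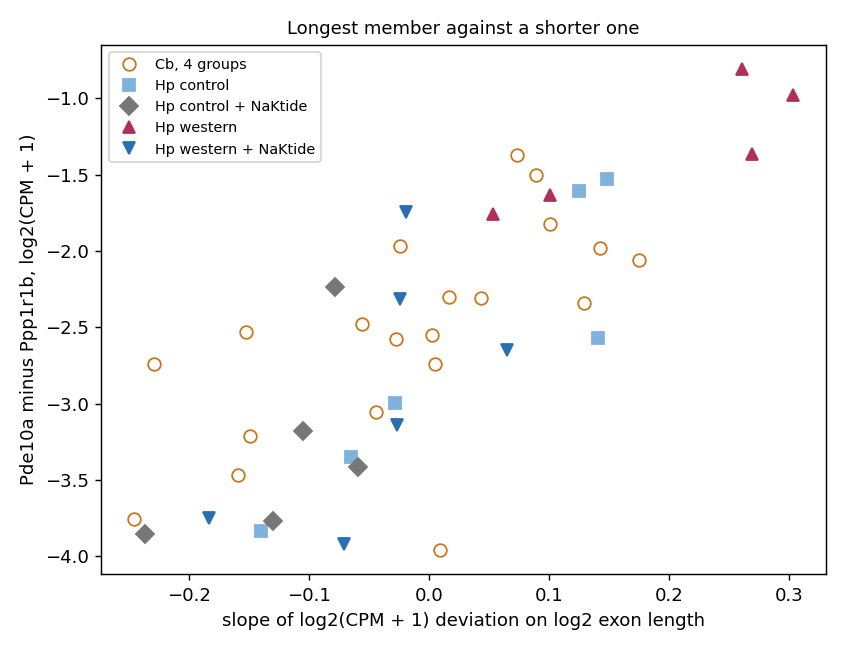
Difference of Pde10a from Ppp1r1b (log2(CPM + 1)) against the slope of expression on log2 exon length in each of 42 libraries (open circles, cerebellum label; filled symbols, the 4 hippocampus groups). The hippocampus western libraries lie at the upper right, with slopes of 0.05 to 0.30 and differences of -1.76 to -0.81.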

How the data were processed

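Total RNA was sequenced from mouse brain tissue as strand-aware mRNA libraries, per the labels' protocols. Per the submitters' processing notes, Trimmomatic (0.38), HISAT2 (2.1.0), DESeq2 (1.20.0) and the GRCm38 build were used. How reads were counted is not given in the sources used here. Deposited by the authors were raw read counts for each gene, a signal table of counts divided by size factors, and FPKM values, each with 42 libraries and 54232 genes. The deposited counts summed to 4669374 to 9521002 for each library, with 14665 to 16345 genes at 10 counts or more. The series' design text also speaks of liver and adipose tissue, which are not analysed here.

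Symbols came from the GENCODE M21 annotation and named 54079 identifiers. Counts were tested with edgeR 4.0.16 (TMM scaling, low-count filter, quasi-likelihood F test) in R 4.3.3, with 1 fit for each label over its 4 groups and 1 over all 8 groups for the label comparisons. Benjamini-Hochberg adjusted p under 0.05 over all genes tested was a call, and the standard error is the log2 fold change divided by the square root of F. CPM values use TMM scaling over all 42 libraries, and log values use log2(CPM + 1). The members are ranked by level on the deposited FPKM. The direct minus indirect difference, Drd2 beside Drd1 and Pde10a beside Ppp1r1b use CPM, which is not scaled by gene length. The size-factor signal the authors deposited was checked against the counts and not tested. The fits were tested on simulated data with 200 changed genes. DESeq2 1.42.0, other size factors, no filter, a replicate block, fits of the compared groups only, leaving out each library, leaving out the libraries with over 5 Xist counts, and hippocampus control 5 and 6 summed were tried as alternatives. For the direct minus indirect difference, pseudocounts of 0.1 and 5 and the receptors alone were tried.

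The members and the gene lists were chosen with earlier results of these data known. All 9 members are named, and of each other list at most the 3 genes with the smallest p in the comparison described. The 12 genes most like the mean of the members, and for each member the 3 most like it, were taken over genes with a mean of at least 1 CPM. Of those 3 only the closest is given, for 8 of the members. Results for 1 gene are not reported here.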

Additional observations from a re-analysis of the deposited data

Results flagged for a closer look

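Among 80 sets of values, each of a member or of the direct minus indirect difference in a group of 5 or 6 libraries, 27 had a highest library far from the rest of its group by Dixon's criterion. The criterion is set to flag about 1 in 20 groups when values follow a normal distribution. The members were examined as CPM and not on the log scale, and their high values lie far out. The 27 of 80 therefore cannot be set against that rate, and the values of the 9 members in a library are not independent. All 27 lay in 5 libraries.

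Cerebellum control NaKtide 2 stood above its group for Drd1 (99.0 CPM), Drd2 (172 CPM), Adora2a (279.9 CPM), Rgs9 (330.4 CPM), Penk (1496 CPM), Pdyn (162 CPM), Tac1 (162 CPM) and Pde10a (351 CPM). Cerebellum western 1 stood above its group for Ppp1r1b (966 CPM), Drd1 (46.8 CPM), Adora2a (149.8 CPM), Rgs9 (165 CPM), Penk (947 CPM), Pdyn (144 CPM) and Pde10a (115 CPM). Cerebellum western NaKtide 1 did so for Ppp1r1b (1618 CPM), Adora2a (250.5 CPM) and Penk (1179 CPM), and cerebellum control 5 for Drd1 (30.8 CPM) and Penk (585 CPM). Hippocampus western NaKtide 6 did so for Drd1 (106 CPM), Drd2 (195 CPM), Adora2a (326 CPM), Rgs9 (351 CPM), Penk (1435 CPM), Pdyn (192 CPM) and Pde10a (361 CPM).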

How the results depend on the processing

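For NaKtide on the western diet under the hippocampus label, the 5 called members became 0 with a replicate block, a fit that called 31.8% of genes, and 0 without the libraries with Xist counts, and 1 to 7 when single libraries were left out (1 without western 2, western 4 or western NaKtide 6, and 3 without western 3). For the diet without NaKtide, the 0 became 4 with DESeq2 and 2 without the Xist libraries, and leaving out single libraries gave 0 throughout. Without cerebellum control 5, 1 member was called for NaKtide on the control diet under the cerebellum label and 1 in the label comparison on the control diet, in fits that called 26.5% and 25.0% of genes, and the ranges over single libraries left out were 0 to 1 for both. The cause of these changes was not tested. The replicate block gave 0 members called in the other comparisons too. Over all pairs, same-numbered libraries did not deviate together (median correlation -0.06 over 30 pairs under the cerebellum label, -0.11 over 31 under the hippocampus label and 0 over 80 between the labels). The 80 pairs ran from -0.62 to 0.58 and mix pairs of the same and of different diet and NaKtide groups. Whether same-numbered libraries of 1 group under both labels came from the same mouse was therefore not tested.

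Of 1188 member fold changes under alternatives, 1134 kept their direction and side of the threshold, 26 lost a call, 15 gained a call and 13 changed sign, in results that were not called. Without the Xist libraries these were Ppp1r1b (-0.17) and Pdyn (-0.34) for diet with NaKtide and Pde10a (-0.083) for NaKtide on the western diet, all under the hippocampus label. With the replicate block they were Pdyn (-0.18) and Pde10a (-0.35) in the same comparisons. Leaving out single libraries gave ranges of -0.21 to 1.10 for Ppp1r1b, -0.38 to 0.93 for Pdyn and -0.088 to 1.29 for Pde10a there. For NaKtide on the control diet under the cerebellum label the ranges were -0.15 to 1.47 for Drd2, -0.26 to 1.72 for Rgs9, -0.064 to 1.61 for Penk, -0.17 to 1.11 for Pdyn and -0.27 to 0.98 for Tac1.

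For the direct minus indirect difference, a pseudocount of 0.1 moved 0 of 42 libraries by more than the spread in their group, a pseudocount of 5 moved 1 and the receptors alone moved 14. Drd1 rests on 3 counts in its lowest library, so its low end is the least precise.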
